A study of Caenorhabditis elegans with 2 samples.

Results

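Autosomal intergenic regions outside promoters were 3956 of the 30000 regions that the authors called from pooled LIN-11 ChIP-seq reads. A region was counted here when its summit, the base of highest signal, lay on chromosome I to V, in no protein-coding gene body, outside promoters (1000 bp before to 200 bp after a protein-coding transcript start), and more than 200 bp from any tRNA gene. The 3956 regions lay in 2061 intergenic intervals and were flanked by 3741 protein-coding genes. Of them, 254 were also in the authors' optimal list of 1917 regions and 3702 were not. "Intergenic" refers to protein-coding genes only, so a summit may lie inside a pseudogene or a non-coding RNA gene.

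ChIP-seq recovers DNA fragments that are cross-linked to a protein and sequences them, so that stretches with many fragments mark where the protein, or something bound to it, sat on the genome. The material was *Caenorhabditis elegans* in the second larval stage (L2), taken as whole animals of strain OP62 with the genotype unc-119(ed3) III; wgIs62, in which LIN-11 carries GFP and FLAG at its C terminus. There was 1 group of 2 biological replicates, both of pooled males and females. Both replicates carried the unc-119(ed3) allele and the transgene, no animals without the transgene were analysed here, and a control alignment used by the authors was not analysed here. Replicate 1 came from the laboratory's own stock and replicate 2 from a stock centre. Sonication is named for replicate 1, and fragments of 150 to 350 bp for replicate 2. The antibody entry names LIN-11 whereas the description names a GFP fusion, and how much of the genome around *lin-11* the transgene holds is not given in the sources used here. Whole animals were used, so a region bound in a few cells and a region bound weakly in many cannot be told apart.

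LIN-11 belongs to the LIM homeodomain class of transcription factors, in which paired LIM zinc-binding domains contact partner proteins and the homeodomain binds DNA, typically at sites with a TAAT core. It is known in the worm for its part in the vulval lineage, in uterine cells that connect the uterus to the vulva, and in the identity of several neurons. Most worm genes are compact, with regulatory sequence close to the transcript start. Intergenic DNA farther away can hold enhancers, promoters of non-coding RNA genes, and unannotated or trans-spliced upstream starts, because trans-splicing removes the original 5′ end of many worm transcripts.

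The DNA under some of the strongest of these summits is shown first, as examples of the sequence whose word content is described further down. Each sequence is the summit with 50 bases on each side, on the plus strand of WBcel235 (ce11), named by the flanking protein-coding genes on the left and right. Capitals mark GAGAGA (or its reverse complement TCTCTC) and CTGCGTCT (or AGACGCAG), and the word CTGCGTCTCTC holds both overlapping. These are the 8 strongest optimal regions of chromosomes II to V, in order of falling signal.
cutl-22/cmd-1, V:1151427-1151527: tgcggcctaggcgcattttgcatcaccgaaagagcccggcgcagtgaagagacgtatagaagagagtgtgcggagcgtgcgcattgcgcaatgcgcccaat
C17C3.24/ins-13, II:5543508-5543608: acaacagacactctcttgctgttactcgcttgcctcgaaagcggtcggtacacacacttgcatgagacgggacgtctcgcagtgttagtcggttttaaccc
sgn-1/F07H5.13, II:8787557-8787657: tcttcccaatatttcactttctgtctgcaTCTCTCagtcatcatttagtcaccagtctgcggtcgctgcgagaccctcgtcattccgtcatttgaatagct
egl-3/cul-5, V:10174795-10174895: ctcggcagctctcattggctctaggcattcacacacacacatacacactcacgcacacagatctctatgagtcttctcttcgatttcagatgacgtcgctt
sup-26/R10E4.3, III:4282194-4282294: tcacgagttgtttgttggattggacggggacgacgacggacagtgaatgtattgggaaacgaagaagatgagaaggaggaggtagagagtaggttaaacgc
T23F11.6/ppm-2, III:4649437-4649537: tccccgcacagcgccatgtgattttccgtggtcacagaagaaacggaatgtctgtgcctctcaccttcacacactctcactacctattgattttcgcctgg
F58D12.1/F58D12.3, V:14055178-14055278: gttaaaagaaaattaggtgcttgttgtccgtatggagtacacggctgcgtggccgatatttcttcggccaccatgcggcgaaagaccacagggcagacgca
W08G11.1/pptr-1, V:16356016-16356116: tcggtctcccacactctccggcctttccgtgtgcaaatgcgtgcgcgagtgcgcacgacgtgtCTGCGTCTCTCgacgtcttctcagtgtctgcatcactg

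Of these 8 windows, 2 held a marked word. The window between *sgn-1* and *F07H5.13* held 1 GA word, and that between *W08G11.1* and *pptr-1* held the overlapping pair. None of the 8 held TAATTA. These windows are too few to show the word shares. Among the 20 strongest intergenic regions of all autosomes, 10 held the GA word and 6 held the 8-base word.

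The next 5 windows are the strongest others of chromosomes II to V that hold CTGCGTCT or its complement, chosen for that word after its share had been seen. They show how the word sits by itself, beside GA words and in several copies.
F54F12.1/Y39E4B.6, III:13068503-13068603: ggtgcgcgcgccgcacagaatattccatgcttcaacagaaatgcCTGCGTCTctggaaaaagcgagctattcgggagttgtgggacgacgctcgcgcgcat
chw-1/egl-9, V:10466659-10466759: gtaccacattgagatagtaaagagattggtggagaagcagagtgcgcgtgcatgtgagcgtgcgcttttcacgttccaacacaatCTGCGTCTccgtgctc
W02B3.3/grk-2, III:671172-671272: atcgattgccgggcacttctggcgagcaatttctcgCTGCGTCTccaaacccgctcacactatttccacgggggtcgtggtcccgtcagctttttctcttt
H10E21.5/clp-10, III:25693-25793: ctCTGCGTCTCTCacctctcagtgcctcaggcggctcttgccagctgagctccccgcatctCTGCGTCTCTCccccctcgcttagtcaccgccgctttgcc
T04C4.3/fnip-2, IV:2219584-2219684: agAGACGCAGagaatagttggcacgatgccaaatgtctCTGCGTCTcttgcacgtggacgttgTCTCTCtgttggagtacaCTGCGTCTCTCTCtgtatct

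The first 3 of these windows held 1 copy of the 8-base word each. The window between *H10E21.5* and *clp-10* (pooled signal 85.3) held 2 copies, both run on into a GA word, and the window between *T04C4.3* and *fnip-2* (67.3) held 3 copies of the 8-base word and 3 GA words.

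TAATTA, a palindrome that holds the TAAT core, was in the windows of 2 of the 254 optimal regions, both on chromosome IV. Here the capitals mark TAATTA alone.
C06A6.7/C06A6.2, IV:7840094-7840194: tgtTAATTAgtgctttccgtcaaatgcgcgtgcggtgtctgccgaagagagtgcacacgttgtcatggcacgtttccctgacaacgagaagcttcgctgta
tax-6/C02F4.4, IV:10505109-10505209: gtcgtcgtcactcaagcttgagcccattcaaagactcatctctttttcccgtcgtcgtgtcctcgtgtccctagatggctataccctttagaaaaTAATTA

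Their pooled signals were 49.8 and 36.5. In both, the word lay near an edge of the window rather than at the summit.

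Autosomal intergenic regions entered the optimal list about as often as regions in general, less often than promoter regions and more often than intron or exon regions. In all, 254 of 3956 were optimal, or 6.42% (95% Wilson interval 5.70% to 7.23%), beside 6.39% over all 30000 pooled regions. The share was 12.6% for autosomal promoter regions (1017 of 8050), 3.87% for introns (202 of 5222), 2.26% for other exons (10 of 442) and 0.189% for coding exons (13 of 6862). Of the 63 intergenic regions within 200 bp of a tRNA gene, which the definition leaves out, 17 were optimal (26.98%). Without replicate 2 that count was 5 of 51, and the odds ratio of the intergenic set against them moved from 0.183 (adjusted p = 6.75e-07, Fisher exact test) to 0.602 (adjusted p = 0.387).

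The odds of being optimal did not differ detectably between these regions and all other autosomal regions (odds ratio 1.06, 95% interval 0.920 to 1.22, Fisher exact test, adjusted p = 0.448). This comparison mixes places that differ from the intergenic set in both directions, and its direction changed with the setting. The odds ratio was 0.804 with the stronger 50% of the optimal list (adjusted p = 0.0490, Fisher exact test), 0.880 with a 2000 bp promoter window (adjusted p = 0.145) and 0.876 without replicate 1 (adjusted p = 0.0693), but 1.21 with a 500 bp window (adjusted p = 0.00332, Fisher exact test). Against promoters the odds ratio was 0.475 (0.412 to 0.548, adjusted p = 1.38e-26, Fisher exact test), and against introns it was 1.70 (1.41 to 2.06, adjusted p = 7.27e-08, Fisher exact test). Against coding exons it was 34.9 (20.1 to 60.4, adjusted p = 5.00e-94, Fisher exact test), but its size depended on the list, at 13.04 without replicate 1 and 6.77 without replicate 2. With only the strongest region of each interval, the ratio against promoters was 0.845 and against introns 3.03. That setting raises both ratios by construction, because the promoter and intron regions were not thinned in the same way. Intergenic regions of the X chromosome, compared afterwards and outside the planned tests, were optimal in 98 of 1235 cases (7.94%), and the odds ratio of autosomal against X was 0.794 (0.623 to 1.01, Fisher exact p = 0.0694). All these tests count regions of 1 pooled experiment, neighbouring regions are not independent, and regions are not replicates, so the p-values are too small as statements about animals.

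**Figure D1:**
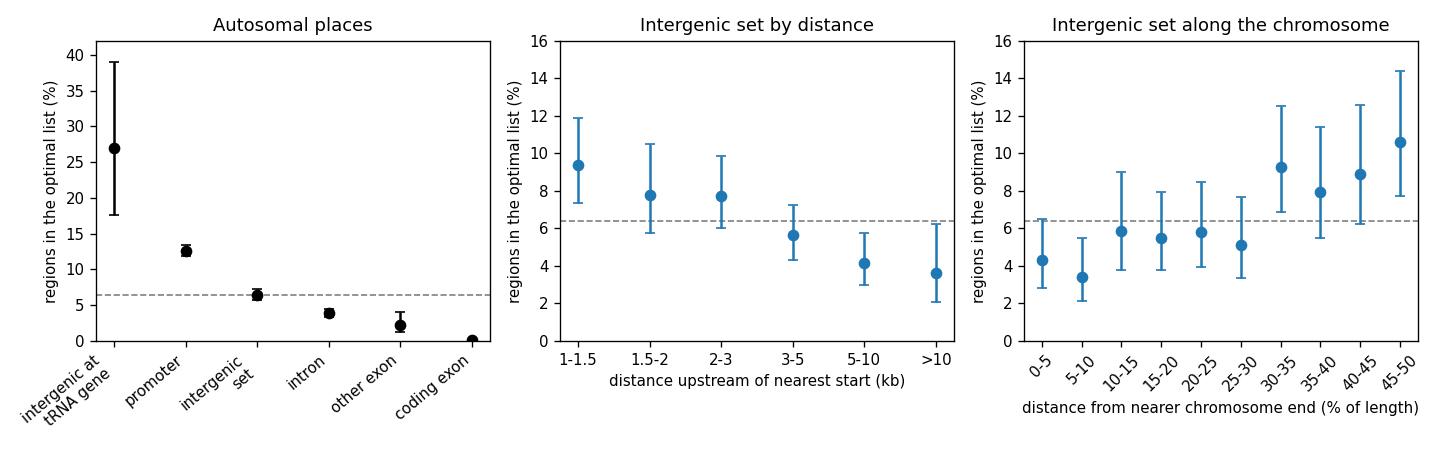
Share of regions in the optimal list (%, points, with 95% Wilson intervals). Left, autosomal regions by place, where "intergenic set" is the 3956 regions described here; middle, the same set by distance upstream of the nearest protein-coding start in kb; right, the set by distance from the nearer chromosome end in % of its length. The dashed line is 6.39%, the share over all pooled regions. The intergenic set lies on the line between promoters and introns, and its share falls from 9.38% to 3.64% with distance.

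The optimal intergenic regions were the strong end of a continuous range. Their pooled signal, a value given by the authors whose scaling is not stated, ran from 28.05 to 198.9 with a median of 40.8, and that of the other intergenic regions from 5.43 to 27.8 with a median of 8.10. The signal ranges did not overlap, so each comparison of optimal with other regions compares strong with weak. The weakest optimal regions lay between *hsf-1* and *Y53C10A.15* (28.16), *pmr-1* and *W05B5.1* (28.06) and *W04A4.6* and *Y6B3B.1* (28.05). Just under them lay *W04D12.1*/*ddx-23* (27.8), *K12G11.6*/*sma-1* (27.7) and *W10C8.6*/*Y71F9AL.10* (27.7). The authors' −log10 q-value stood at its ceiling in 227 of the 254, so it could not rank them. Intergenic regions made up 6 of the 100 strongest pooled regions (6%), 16 of the 200 (8%), 48 of the 500 (9.6%) and 107 of the 1000 strongest (10.7%). Each is a smaller share than their 3956 of all 30000 pooled regions and their 254 of the 1917 optimal regions.

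The strongest region lay at I:10235116-10235439 in the 14901 bp between *csnk-1*, a casein kinase 1 gamma gene, and *lin-11* itself. The genes point away from each other, and the summit was 1892 bp from the start side of *csnk-1*, 13010 bp from *lin-11* and inside the non-coding RNA gene *Y106G6E.7*. Its signal was 198.9 in the pooled list, 75.6 in replicate 1 and 123.0 in replicate 2, where it ranked 9th and 14th among all regions. A weaker optimal region (37.1) lay 2213 bp to its right at I:10237329-10237652, with 6.47 in replicate 1 and 25.6 in replicate 2. The first was near the top in both replicates, and the second was strong in replicate 2 alone. Whether the transgene adds copies of this interval is not given in the sources used here, and the part of such copies in the rank and signals of both regions was not tested.

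The next strongest lay between *cutl-22*, a cuticlin-like gene, and *cmd-1*, which encodes calmodulin (V:1151442-1151551). Its signal was 178.8 in the pooled list, 73.9 in replicate 1 and 104.5 in replicate 2, and its summit was inside *linc-128*. At 110 bp it was 1 of 2 optimal intergenic regions narrower than the common 324 bp.

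On chromosome II, the region between *C17C3.24* and *ins-13*, an insulin-like peptide gene, had a signal of 147.0 in the pooled list, 44.96 in replicate 1 and 104.9 in replicate 2 (II:5543396-5543719). Its summit was 23 bp from the non-coding RNA gene *C17C3.23* and 40 bp from *sls-2.2*, annotated as an snRNA gene. It lay 1773 bp upstream of *C17C3.24* and on the 3′ side of *ins-13*, 954 bp away. The region between *sgn-1*, a sarcoglycan gene, and *F07H5.13* (II:8787445-8787768) had 141.2 in the pooled list, 30.8 in replicate 1 and 114.7 in replicate 2. Replicates placed it differently, at rank 347 in replicate 1 and 26 in replicate 2.

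On chromosome V, the region between *egl-3*, which encodes a proprotein convertase that processes neuropeptides, and *cul-5*, a cullin gene, had 132.9 in the pooled list, 49.3 in replicate 1 and 88.9 in replicate 2 (V:10174683-10175006). On chromosome III, the region between *sup-26*, which encodes an RNA-binding protein, and *R10E4.3* had 121.7 in the pooled list, 60.4 in replicate 1 and 71.0 in replicate 2 (III:4282082-4282405). The region between *C26C6.9* and *goa-1*, the gene of the Go alpha subunit, had 118.8 in the pooled list, 55.2 in replicate 1 and 65.2 in replicate 2 (I:7518311-7518634). In each replicate these 3 were among the 200 strongest.

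The other regions among the 20 strongest had pooled signals between 86.2 and 112.3. They include the interval of *nlp-40*, a neuropeptide gene, and *rcor-1*, a CoREST gene (112.3), which is only 646 bp long between genes that point at each other. They also include *T23F11.6*/*ppm-2*, next to a protein phosphatase gene (109.1), *W08G11.1*/*pptr-1*, next to a regulatory subunit of phosphatase 2A (102.8), and *tcc-1*/*csn-1*, next to a COP9 signalosome gene (97.9). The intervals of *hif-1*, the hypoxia-inducible factor (100.8), and of *egl-9*, the prolyl hydroxylase that acts on it (86.2), were both among the 20. On chromosome IV the strongest were *Y105C5A.1*/*pqn-76* (91.9) and *znf-782*/*csn-4*, next to another COP9 signalosome gene (83.5). Both summits beside COP9 signalosome genes lay on the 3′ side of those genes, 3335 bp from *csn-1* and 6857 bp from *csn-4*. They were upstream of *tcc-1* (2044 bp) and *znf-782* (3081 bp). All of the 20 strongest were also within the top 1917 of each replicate, 10 lay between genes that point away from each other, and 6 lay within 200 bp of a non-coding RNA gene.

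**Figure D2:**
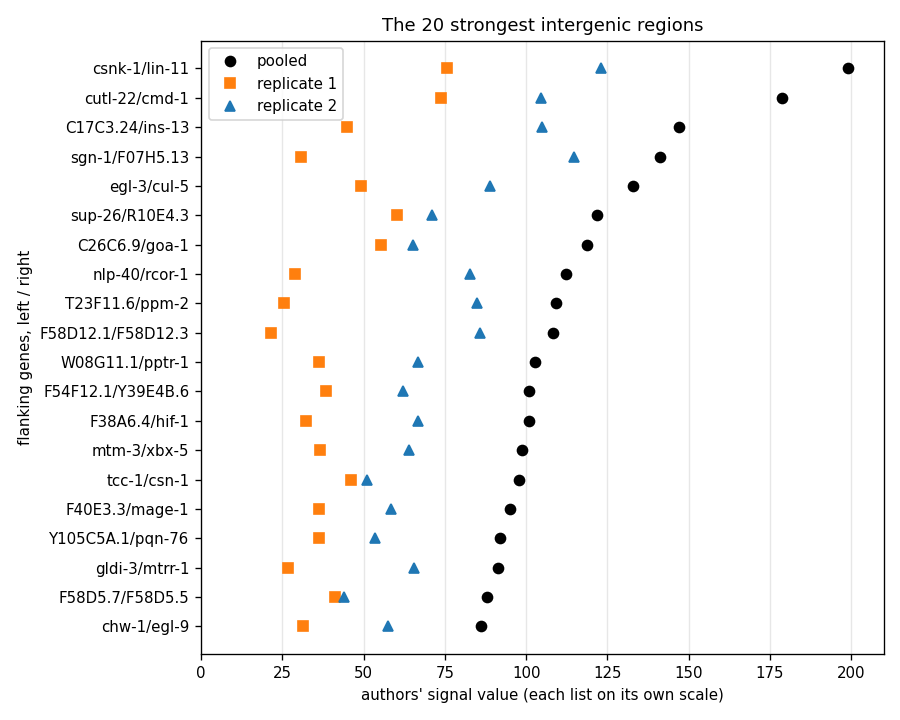
Signal of the 20 strongest intergenic regions (horizontal axis, authors' signal value), 1 line per region named by its left and right flanking genes. Circles are the pooled list, squares replicate 1 and triangles replicate 2, each list on its own unstated scale. Replicate 2 values lie to the right of replicate 1 values in all 20, and the region beside *lin-11* stands highest in each.

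Most intervals with an optimal region held only 1. Of 2061 intervals, 224 held an optimal region, 201 of them 1, 17 held 2, 5 held 3 and 1 held 4. The interval with 4 lay on chromosome I between *chd-7*, a chromodomain helicase gene, and *W09C3.4*, where signals ran from 46.7 to 84.9 over 3808 bp around *linc-91*. Intervals with 3 included *cutl-22*/*cmd-1* (40.1 to 178.8) and *F54F12.1*/*Y39E4B.6* (55.5 to 100.8). Another optimal summit lay within 1000 bp of 17 of the 254 optimal regions, and within 324 bp of 8, where the regions share reads.

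The replicates placed nearly all optimal intergenic regions at the same sites but ranked them loosely. A summit within 100 bp was found in both replicate lists for 235 of 254 (92.5%, 88.6% to 95.2%), beside 91.2% of the 1663 other optimal regions (odds ratio 1.17, 0.713 to 1.91, Fisher exact p = 0.550). The optimal list was made in part from the same reads, so this is not an independent repeat. Of the other 3702 intergenic regions, 763 were matched in both (20.6%). At 50 bp the share was 65.7% against 75.3% of other optimal regions (odds ratio 0.627, Fisher exact p = 0.00158), so within that tighter distance intergenic summits were matched less often.

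In both replicates' strongest 1917 regions were 127 of the 254, against 974 of the 1663 other optimal regions (58.6%, odds ratio 0.708, 0.543 to 0.921, Fisher exact p = 0.0116). Of the remaining optimal intergenic regions, 56 were in the strongest 1917 of replicate 1 only, 62 of replicate 2 only and 9 of neither. Across the 235 matched in both, the Spearman correlation of the replicate signals was 0.297, across 763 other intergenic regions it was 0.268, and across 1517 other optimal regions 0.444. These are descriptions, because all regions of a replicate share its library.

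The regions with the widest gaps show the disagreement. Each rank is that of the nearest replicate summit. The region between *dcp-66* and *T25G3.1* ranked 1309 in replicate 1 (summit 78 bp away) and 25758 in replicate 2 (99 bp away). That between *unc-51*, an autophagy kinase gene, and *Y60A3A.23* ranked 27869 in replicate 1 (36 bp away) and 776 in replicate 2 (88 bp away). The strongest without a match within 100 bp were *chd-7*/*W09C3.4* (84.9) and *atfs-1*/*T16A9.3* (68.1), unmatched in replicate 1, and *sam-10*/*mrpl-20* (62.8), unmatched in replicate 2. For the first, the nearest replicate 1 summit was 176 bp away.

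**Figure D3:**
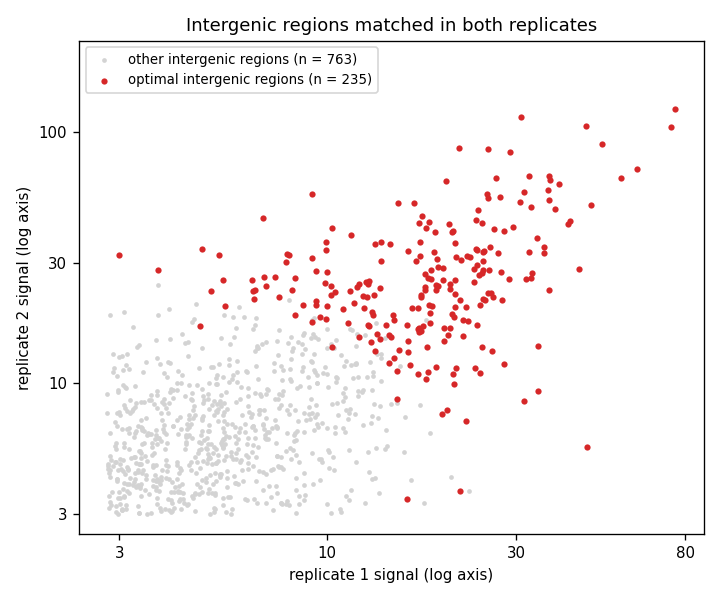
Signal in replicate 1 (horizontal, log axis) against replicate 2 (vertical, log axis) for intergenic regions with a summit in both lists within 100 bp. Red points are the 235 optimal regions and grey points 763 others. Most optimal regions lie above or to the right of the other regions, and several are near the bottom of 1 replicate.

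Optimal regions were nearer to transcript starts and to chromosome centres than the rest. Of 254, 98 lay within 2000 bp upstream of a protein-coding start (38.6%) against 1030 of 3702 (27.8%; odds ratio 1.63, 1.26 to 2.12, Fisher exact test, p adjusted over 8 features = 8.15e-04). The median upstream distance was 2367 bp for the optimal regions and 3266 bp for the rest. The share in the optimal list was 9.38% at 1000 to 1500 bp, 7.70% at 2000 to 3000 bp, 4.14% at 5000 to 10000 bp and 3.64% beyond, in bins set after the data were seen. At the edge of the promoter window there was no step, with 9.38% optimal at 900 to 1000 bp and 10.5% at 1000 to 1100 bp. With the stronger 50% of the optimal list the call was lost (odds ratio 1.49, Fisher exact test, adjusted p = 0.121), and with 1 region per interval as well (1.34, adjusted p = 0.0521).

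Worm autosomes have gene-dense centres and arms that recombine more and hold more repeats. In the middle 50% of the chromosome lay 148 of 254 optimal regions (58.3%) and 1644 of 3702 others (44.4%; odds ratio 1.75, 1.35 to 2.26, adjusted p = 5.61e-05, Fisher exact test). By autosome the optimal share was 8.06% on chromosome I (57 of 707), 7.91% on III (54 of 683), 6.88% on IV (55 of 799), 5.50% on II (43 of 782) and 4.57% on V (45 of 985). Of the 5, chromosome V alone passed the test against the others together (odds ratio 0.638, 0.459 to 0.886, Fisher exact test, p adjusted over 5 autosomes = 0.0274). In the same Fisher exact test that call was lost when replicate 1 was left out (0.733, adjusted p = 0.313), with a 2000 bp promoter window (0.712, adjusted p = 0.401), with the stronger 50% (0.734, adjusted p = 0.343) and without any gene body (0.643, adjusted p = 0.0756).

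The orientation of the flanking genes did not pass the test, although it did under several alternatives. The summit was upstream of both neighbours in 92 of 254 optimal regions (36.2%) and 1154 of 3702 others (31.2%; odds ratio 1.26, adjusted p = 0.108, Fisher exact test). It was upstream of neither in 20 (7.87%) and 12.1% (0.636, adjusted p = 0.0709, Fisher exact test). The remaining optimal regions comprised 141 upstream of 1 neighbour and 1 near the left end of chromosome I, with *homt-1* as its only neighbour. With a promoter window of 500 bp both comparisons passed in the Fisher exact test (1.36, adjusted p = 0.0124, and 0.594, adjusted p = 0.0240), and so did both with 1 region per interval (1.53, adjusted p = 0.00919, and 0.436, adjusted p = 6.51e-04). Without replicate 2 the share upstream of neither passed (0.541, adjusted p = 0.0119, Fisher exact test).

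Optimal regions lay more often at annotated non-coding RNA genes. Within 200 bp of such a gene, tRNA genes aside, were 80 of 254 optimal regions (31.5%) and 497 of 3702 others (13.4%; odds ratio 2.97, 2.25 to 3.93, Fisher exact test, adjusted p = 9.09e-12). Genes of the general class ncRNA accounted for 54 of the optimal regions (21.3%, against 9.81% of the others) and lincRNA genes for 8 (3.15%, against 1.11%). A region near genes of several classes counts in each. The piRNA genes, which make small RNAs that protect the germ line from transposons, lay near 3 optimal regions (1.18%) and 92 others (2.49%).

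The snoRNA genes, whose RNAs guide the chemical modification of ribosomal and other RNAs, stood out by ratio. They lay near 19 optimal regions (7.48%, 4.84% to 11.4%) and near 15 others (0.405%, 0.246% to 0.667%), an odds ratio of 19.7 given with no test because the class was singled out after its values were seen. Within 200 bp of a snoRNA gene, 19 intergenic regions of 34 were thus optimal. Their signals ran from 28.5 at *F25H2.15* to 72.7 at *T19B4.8*. The summit at *T19B4.8* lay 35 bp from that gene, between *pamn-1* and *lim-7*, with 29.5 in replicate 1 and 41.8 in replicate 2. The summit at *T06C12.16* (71.4) had 23.8 in replicate 1 and 44.3 in replicate 2, and the summit inside *ZK643.9* (70.7) had 24.6 in replicate 1 and 43.2 in replicate 2. Without snoRNA genes the odds ratio for non-coding RNA genes was 2.37 (adjusted p = 2.51e-07, Fisher exact test), an alternative added after seeing the data.

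Of the microRNA genes, which yield small repressors of mRNAs, 3 lay within 200 bp of an optimal summit. They were cel-mir-52 (188 bp away, signal 74.4), cel-mir-53 (111 bp, signal 50.9) and cel-mir-8209 (summit inside, signal 39.7). Near other regions there were 8 (0.216%, against 1.18%). Counts this small give no firm ratio.

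Pseudogenes lay at fewer optimal than other regions, a difference that rested on summits inside them. Within 200 bp of a pseudogene were 4 of 254 optimal regions (1.57%) and 415 of 3702 others (11.2%; odds ratio 0.142, 0.0556 to 0.363, Fisher exact test, adjusted p = 7.34e-08). Without replicate 2 the odds ratio was 0.0698. Of those 415, 362 had the summit inside the pseudogene. When summits inside any annotated gene were left out, 3 of 217 optimal regions and 52 of 3144 others remained near a pseudogene, and the odds ratio was 0.961 (Fisher exact test, adjusted p = 1). No optimal region lay on multi-copy sequence, defined as over 50% of the 36-base words around the summit occurring more than once in the genome. The 0 of 254 allows a share of up to 1.18% by the limit of 3 counts and up to 1.49% by the Wilson interval, counting error only, and 51 others did (1.38%; adjusted p = 0.101, Fisher exact test). Where over 50% of the bases around the summit were soft-masked as repeats, 1.70% of regions were optimal, against 9.19% where none were.

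Gene lists tied to known roles of *lin-11* flanked small numbers of regions, so their shares are imprecise. The 254 optimal regions were flanked by 440 protein-coding genes of the 3741. The lists below are described by counts beside the 6.39% of all pooled regions, with no test. The LIM homeobox list had 7 regions, of which 3 were optimal, namely those beside *lin-11* already described and that beside *lim-7* (72.7), 9563 bp upstream of it. The last was also the 1 optimal region of 18 beside genes of *lin-11*-expressing neurons (5.56%).

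Of 38 regions beside genes of the vulva and uterus list, 3 were optimal (7.89%). They lay beside *lin-10*, which encodes a PDZ protein that helps localise the vulval EGF receptor (70.2), beside *fos-1*, the Fos gene required for anchor cell invasion (57.7), and beside *dsl-1*, a Notch ligand gene (45.6). In replicate 1 the region beside *lin-10* had 25.3 and in replicate 2 it had 56.4. The region beside *fos-1* had no match within 100 bp in replicate 1. The nearest summit there was 134 bp away, with a signal of 18.7 and rank 965. The summit beside *lin-10* was 5243 bp from that gene and 1242 bp from *mau-2* on the other side. Of 32 regions beside a separate list of Wnt and Notch pathway genes, which does not hold *dsl-1*, 0 were optimal. Among heterochronic genes, which time larval stages, *lin-41*, a target of the let-7 microRNA, had the 1 optimal region of 5 (65.6), with 33.0 in replicate 1 and 27.3 in replicate 2.

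Among other transcription factor lists, homeobox genes outside the LIM class had 4 optimal of 76 regions (5.26%), beside *unc-39* (37.5), *ceh-48* (35.6), *ceh-22* (31.5) and *ceh-24* (28.8). Nuclear hormone receptor genes had 6 of 143 (4.20%), the strongest beside *nhr-88* (84.1), and bHLH genes had 3 of 30 (10%), of which 2 lay beside *hif-1*. None of the 4 homeobox regions reached the median of 40.8, and that beside *ceh-22* had no match within 100 bp in replicate 2.

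Several large gene families had few optimal regions. Chemoreceptor genes had 5 of 275 (1.82%), F-box and BATH genes 0 of 100, and neuropeptide genes 2 of 82 (2.44%), although those 2, beside *ins-13* and *nlp-40*, were among the 8 strongest. Both summits lay on the 3′ side of the neuropeptide gene, 954 bp from *ins-13* and 196 bp from *nlp-40*. Collagen and cuticle genes had 9 of 112 (8.04%), kinase and phosphatase signalling genes 5 of 51 (9.80%) and G protein signalling genes 4 of 48 (8.33%). The last lay beside *goa-1*, beside *egl-10*, an RGS gene (54.4), and beside *gpb-1*, the G beta gene (43.2 and 37.4). The stronger region beside *gpb-1* lay 8260 bp from that gene and had no match within 100 bp in replicate 2. The nearest replicate 2 summit was 102 bp away, with a signal of 14.8. Ribosomal protein genes had 2 of 29 (6.90%), both beside *rps-25*, with summits 12612 and 5786 bp from it. The first was 1473 bp from *K02B2.6* on the other side, and the second had no match within 100 bp in replicate 2.

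The sequence at optimal intergenic summits was richer in G and C than at the others, by 8.58 percentage points within 50 bp of the summit. Mean GC content was 50.8% ± 5.97 (SD over 254 regions) against 42.2% ± 8.42 (SD over 3702), and 50.6% at the other optimal regions. The optimal share rose from 0.277% of regions of at most 35% GC to 7.38% at 45 to 50% and 22.5% above 60%. GC content also influences how well fragments are amplified and sequenced, and its part in the signal was not tested.

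Of 8 words searched on both strands within 50 bp of the summit, GAGAGA and CTGCGTCT differed most. The 8 words were chosen with earlier results of these data known, so their order is a description only. GAGAGA was in 106 of 254 optimal regions (41.7%, 35.8% to 47.9%), 11.6% of other intergenic regions and 9.39% of all pooled regions. At optimal regions of autosomal promoters it was in 21.8%, and of introns in 30.7%. CTGCGTCT was in 48 (18.9%, 14.6% to 24.2%), against 2.76% of other intergenic regions, 2.16% of all pooled regions, 10.2% of optimal promoter regions and 11.9% of optimal intron regions. Because CTGCGTCTCTC holds both, their matches can overlap. Both were in 28 optimal regions (11.02%) and at least 1 in 126 (49.6%), against 1.49% and 12.8% of other intergenic regions.

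The same words were also more frequent at strong than at weak intergenic regions in each replicate list taken alone. The pooled list was made from the reads of both replicates, so these shares are not an independent repeat of those above. Among the 260 intergenic regions within the strongest 1917 of replicate 1, GAGAGA was in 36.5%, against 10.4% of the rest of that list's intergenic regions. In replicate 2, with 239 such regions, the shares were 39.7% and 11.1%. CTGCGTCT was in 14.2% against 1.94% in replicate 1 and in 21.8% against 2.66% in replicate 2. Among regions of 45 to 55% GC, GAGAGA was in 42.7% of 150 optimal and 14.8% of other regions, and CTGCGTCT in 19.3% and 4.17%, an alternative added after seeing the data.

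TAATTA, a palindrome that holds the TAAT core, was in 2 optimal regions (0.787%), 2.76% of other intergenic regions and 2.39% of all pooled regions. Among regions of 45 to 55% GC the shares were 1.33% and 1.62%. The shorter core TAAT was not searched by itself, so these shares do not cover every homeodomain core. The E-box CACGTG was in 6.30% and 2.76%, the GATA word TGATAA in 3.15% and 6.37%, the TATA word TATAAA in 4.72% and 6.46%, the B-box core GTTCGANNC in 1.97% and 1.84% and the GC word GGGCGG in 7.09% and 4.51%, for optimal and other intergenic regions. Among regions of 45 to 55% GC the E-box shares were 7.33% and 2.81%. There the order turned for the GATA word (4.67% and 3.15%), the TATA word (3.33% and 2.04%) and the GC word (4.67% and 7.65%). It also turned for the B-box core (1.33% and 2.72%). A match is a stretch of letters and not a shown binding site.

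**Figure D4:**
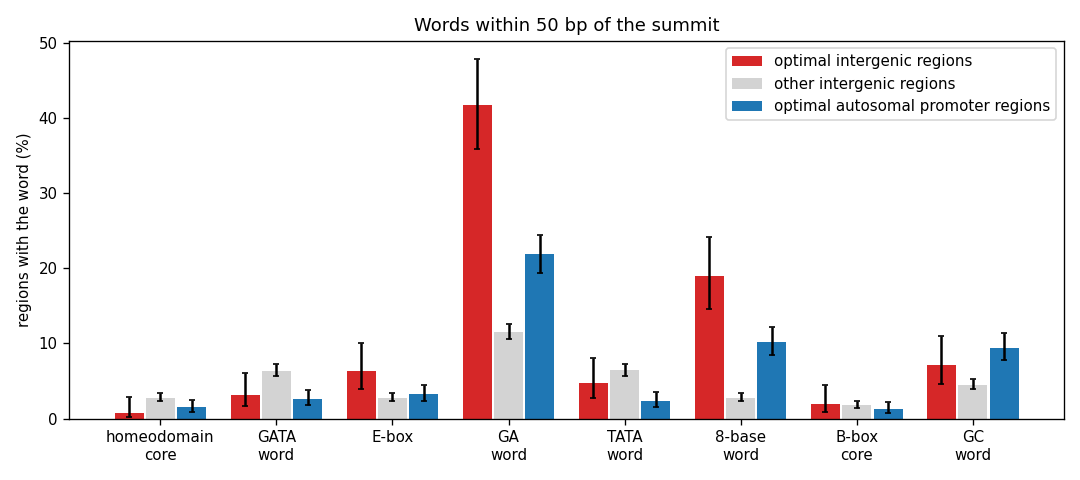
Share of regions with each word within 50 bp of the summit (%, bars from 0, with 95% Wilson intervals) for optimal intergenic, other intergenic and optimal autosomal promoter regions. The GA word reaches 41.7% and the 8-base word 18.9% at optimal intergenic regions, and TAATTA, labelled homeodomain core, 0.787%.

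Among all 2080 words of 6 bases, joined with their reverse complements, 817 were in at least 5% of either set. The highest ratios of shares belonged to AGACGC (26.0% of optimal against 4.51% of other intergenic regions, ratio 5.76), GACGCA (5.43) and ACGCAG (5.42), which are overlapping parts of the 8-base word. They were followed by CGCAGA (4.76), GAGCGC (4.64), CGTCTC (4.37), AGAGAC (4.32) and ACACTC (4.12). The lowest were ATTAAA (0.0430), TAATAA (0.0628), AAATTT (0.127) and TTCGAA (0.144), 3 of them made of A and T alone.

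The word content was centred on the summits. At optimal regions mean GC content was 51.7% in the 25 bases right of the summit and 33.5% at 375 to 400 bp left of it, and at other regions 42.5% and 34.8%. In bins of 25 bases, the GA word began in 14.2% to 16.9% of optimal regions between 100 bp left and 100 bp right of the summit. The 8-base word began in 7.09% of optimal regions in the 25 bases left of the summit, its highest bin, and in 0.648% of others. In the 25 bases right of the summit the shares were 3.94% and 0.999%.

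**Figure D5:**
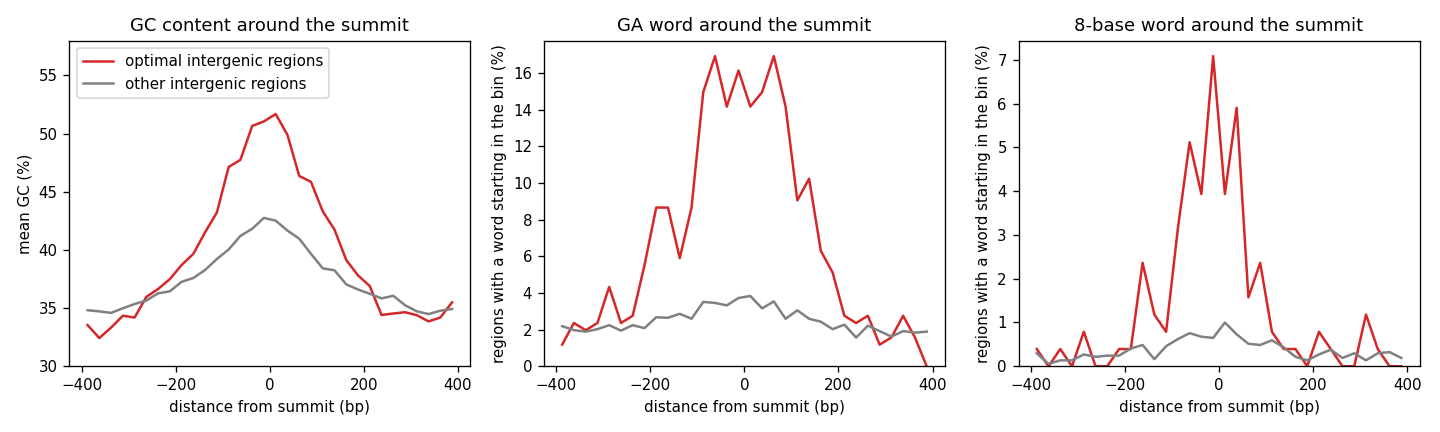
Mean GC content (left, %), share of regions with a GA word starting in a 25-base bin (middle, %) and the same for the 8-base word (right, %), against distance from the summit in bp. Red lines are the 254 optimal and grey lines the 3702 other intergenic regions. All 3 peak within 100 bp of optimal summits, and GC content reaches 51.7%.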

How the data were processed

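The data are region lists from LIN-11 ChIP-seq of 2 biological replicates of L2 larvae. Per the file headers and deposited notes, the authors called regions in each replicate and in pooled reads and derived an optimal list with the irreproducible discovery rate procedure. Read depth is unknown, so intervals cover counting of regions only. The aligner and caller, with versions and thresholds, were not given in the sources used here. The authors deposited for each region a signal value, whose scaling is not stated, and a −log10 q-value. Each input list held 30000 regions and the optimal list 1917. The ce10 lists were not used.

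Summits were placed with Ensembl 115 (WBcel235, 19973 protein-coding genes, 612 tRNA genes), and sequences come from the RefSeq copy of WBcel235. Python 3.11.15, SciPy 1.17.1, NumPy 2.4.6 and pandas 2.3.3 were used. Fisher's exact test, two-sided, compared shares, and p-values were adjusted by Benjamini and Hochberg's method over 6 places, 5 autosomes or 8 features, with a threshold of 0.05. Intervals of odds ratios follow Woolf (95%, 0.5 added per cell). Words and gene lists were described without tests. The placement was checked against a direct rule on a sample of the real regions, and the tests on simulated counts.

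Named regions were the 20 strongest, the 3 strongest per autosome, those at the threshold, those with the widest replicate gaps or no match, and up to 4 per gene list. Not all regions that this rule names are reported here. The regions, lists and words were chosen with earlier results of these data known. The bins, the X chromosome comparison, the non-coding RNA classes and 5 of the printed sequences were chosen after values were seen.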

Additional observations from a re-analysis of the deposited data

How the results depend on the processing

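The odds ratio against all other autosomal regions gained a call at 1.21 with a 500 bp promoter window, turned to 0.880 with a 2000 bp window and to 0.804 with the stronger 50% of the optimal list and 1.88 with only the strongest region of each interval, which raises it by construction; with a replicate left out it ran from 0.876 to 1.10. With the stronger 50%, the odds ratio against tRNA-gene regions was 1.12, where 1 of 63 such regions was left, and without replicate 2 it lost its call at 0.602. Chromosome V lost its call at 0.712 (2000 bp window), 0.643 (no gene body of any biotype) and 0.734 (stronger 50%), and ran from 0.612 to 0.733 with a replicate left out; chromosome III gained one at 1.52 (500 bp window). Orientation (upstream of both neighbours) gained a call at 1.36 (500 bp window) and 1.53 (1 region per interval), and upstream of 1 neighbour turned to 1.07 (2000 bp window), with no call. Distance lost it at 1.49 (stronger 50%) and 1.34 (1 region per interval). Pseudogenes lost it at 0.961 without gene bodies. Multi-copy sequence gained one at 0.179 when any multi-copy word counted. The GC difference was 9.42 percentage points for the stronger 50% and 7.43 within 100 bp. Matching in both replicates turned to 0.627 at 50 bp and 0.708 among the strongest regions. The causes were not tested. The results that answer a comparison kept direction and call in the other 106 pairs of result and setting.

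With a replicate left out, the strongest 1917 regions of the other stood in for the optimal list. Matching could not be recomputed that way, and the distance class was not run with the 2000 bp window, which empties it. No paired analysis was possible because there is 1 group. Odds ratios for GAGAGA, CTGCGTCT and TAATTA, followed because of their values, stayed on the same side of 1 in the settings run. For TAATTA in 45 to 55% GC the ratio was 0.999, which includes the fixed amount added to each cell. The counts there were 2 of 150 optimal and 19 of 1176 other regions, too few to tell whether a difference remained. The settings without snoRNA genes, in 45 to 55% GC and away from non-coding RNA genes were added after seeing the data.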
